A study of Mus musculus with 16 samples.

Results

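The genes described here are the 10 genes of MHC class II antigen presentation with the symbols *Cd74*, *H2-Aa*, *H2-Ab1*, *H2-Eb1*, *H2-DMa*, *H2-DMb1*, *H2-DMb2*, *H2-Oa*, *H2-Ob* and *Ciita*. They were taken by symbol from the 54838 gene rows of the count table, and all 10 passed the filter on low counts. RNA was sequenced from spleens of C57BL/6 mice in 8 size-selected samples, whose source the labels give as spleen glia, and 8 whole spleen samples. The study asked which genes are enriched in spleen glia relative to whole spleen. The size-selected samples hold what stayed on a cell strainer after the spleen had been digested and its red blood cells lysed, and the labels repeat this protocol for whole spleen without a description of its own. Each group has 4 male and 4 female samples with the numbers 407, 408, 427 and 435 for males and 436, 445, 447 and 460 for females, so each number gives 1 pair. No genotype other than the strain, no treatment and no age is given in the labels. A strainer fraction is a mixture of cells and not a purified cell type.

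MHC class II molecules carry peptides from endosomes to the cell surface, where CD4 T cells read them, and in the spleen they are known chiefly from B cells, dendritic cells and macrophages. The alpha and beta chains are assembled on the invariant chain, encoded by *Cd74*, and H2-DM then exchanges the last fragment of that chain for a peptide, while H2-O holds H2-DM in check. The coactivator CIITA switches class II genes on through the X and Y boxes of their promoters, which the RFX and NF-Y complexes bind.

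Of the 10 genes, 8 lie in a single stretch of chromosome 17, from *H2-Oa* (34092340 to 34095234, + strand) to *H2-Eb1* (34305867 to 34316674, + strand; GENCODE M21 on GRCm38). RefSeq promoter windows (GRCm38.p6, from 250 bases before to 50 after the gene start) were found for 7 of the 10, not for *Cd74*, *H2-Ab1* and *Ciita*. In 6 of these 7 a motif of the X box type (GCAAC, or TAACNGA in the H2-DMb pair) stood before GATTGG, the Y box on this strand, with 29 to 32 bases from the start of the first to the start of the second. The stretches are printed because such boxes are the element through which class II genes are known to be switched on. Capitals mark the 2 motifs, each stretch reads 5′ to 3′ on the gene's strand, and the coordinates are those of the stretch. The windows follow RefSeq starts, which differ from the GENCODE starts of some genes. The stretches of *H2-DMb1* and *H2-DMb2* lie inside the GENCODE genes, which start at 34153072 and 34143307. That of *H2-Oa* overlaps its GENCODE start at 34092340.
H2-Aa, chr17:34287859-34287912, - strand: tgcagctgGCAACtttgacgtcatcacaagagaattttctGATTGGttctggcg
H2-Eb1, chr17:34305768-34305820, + strand: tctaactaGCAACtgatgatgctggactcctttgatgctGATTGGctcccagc
H2-DMb1, chr17:34153090-34153142, + strand: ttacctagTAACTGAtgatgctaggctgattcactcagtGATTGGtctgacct
H2-DMb2, chr17:34145119-34145171, + strand: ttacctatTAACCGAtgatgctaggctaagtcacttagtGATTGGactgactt
H2-Oa, chr17:34092295-34092348, + strand: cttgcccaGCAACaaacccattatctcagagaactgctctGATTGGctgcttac
H2-Ob, chr17:34238810-34238860, + strand: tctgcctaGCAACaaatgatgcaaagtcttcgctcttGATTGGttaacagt
The windows of *H2-DMa* held no such pair of motifs. The pair was searched in this order on the gene's strand for the members, and on either strand for the share of all promoters, with 25 to 35 bases from start to start. The letters of the motifs and this spacing were set after these promoters had been looked at. Of 32851 RefSeq promoter windows, 16.1% held GATTGG on either strand, 0.204% held GCAAC before GATTGG at this spacing, and 0.0578% held TAACNGA before GATTGG. A match describes the letters and is no measurement of binding, and the data hold no measurement at these promoters.

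Outside that stretch, *Cd74* lies on chromosome 18 (60803848 to 60812652, + strand) and *Ciita* on chromosome 16 (10480059 to 10528418, + strand). Several of the 10 share sequence or position with another gene, which limits what a count can tell. The transcripts of *H2-DMb1* and *H2-DMb2* are 94.7% identical over 1246 aligned bases, with identical runs of up to 221 bases, so the split of reads between them is an estimate. *Ciita* overlaps *Dexi*, *H2-DMa* overlaps *Brd2*, and *H2-Oa* and *H2-Eb1* overlap antisense genes, each on the opposite strand. Whether the counting used strand is not given in the sources used here. In the size-selected columns, and in none of whole spleen, 3898 genes carry values multiplied by constants, a feature found from the values alone. Of the 10 genes 1 is among them: *Cd74*, whose size-selected values are multiplied by 0.889 to 0.964. Dividing by the constants gives restored counts.

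Estimated counts summed to between 13119992 and 19944440 per size-selected sample and between 12153770 and 16282454 per whole spleen sample. The markers set the fractions apart. All 5 glial markers that passed the filter, all 7 fibroblast markers and all 4 endothelial markers tested were higher in the size-selected samples, with median log2 fold changes of 7.87, 7.0 and 4.20. The summed level of 6 glial genes was between 65.2 and 467 CPM (counts scaled to the same TMM-adjusted library total) in size-selected samples and between 0.622 and 2.86 CPM in whole spleen. All 6 immediate early and stress genes were higher too, with a median of 3.32.

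All 10 class II presentation genes fell in the size-selected samples against whole spleen, by 1.56-fold for *H2-DMb1* to 2.75-fold for *Cd74* (edgeR's quasi-likelihood test, Benjamini-Hochberg adjusted p from 3.14e-07 to 0.0119). On restored counts the largest fall was that of *H2-Oa*, at 2.74-fold, with *Cd74* at 2.63-fold. Among all 14510 genes tested, 67.9% were called and 30.4% were called lower, so a fall by itself is common in this comparison. Each of the 10 was lower in 8 of 8 numbered pairs, which held for 22.2% of all genes. For 8 of the 10 every size-selected sample lay below every whole spleen sample, which held for 11.6% of all genes. The median log2 fold change of the 10 was -1.22, beside 0.05 over all genes tested. With library totals in place of TMM scaling these medians were -1.07 and 0.18. In bulk RNA, fewer cells of a type and less RNA per cell cannot be told apart. Together the 10 genes took 6.01 ± 0.565% of all counts in whole spleen and 2.60 ± 0.894% in the size-selected samples (SD, n = 8 each).

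**Figure D1:**
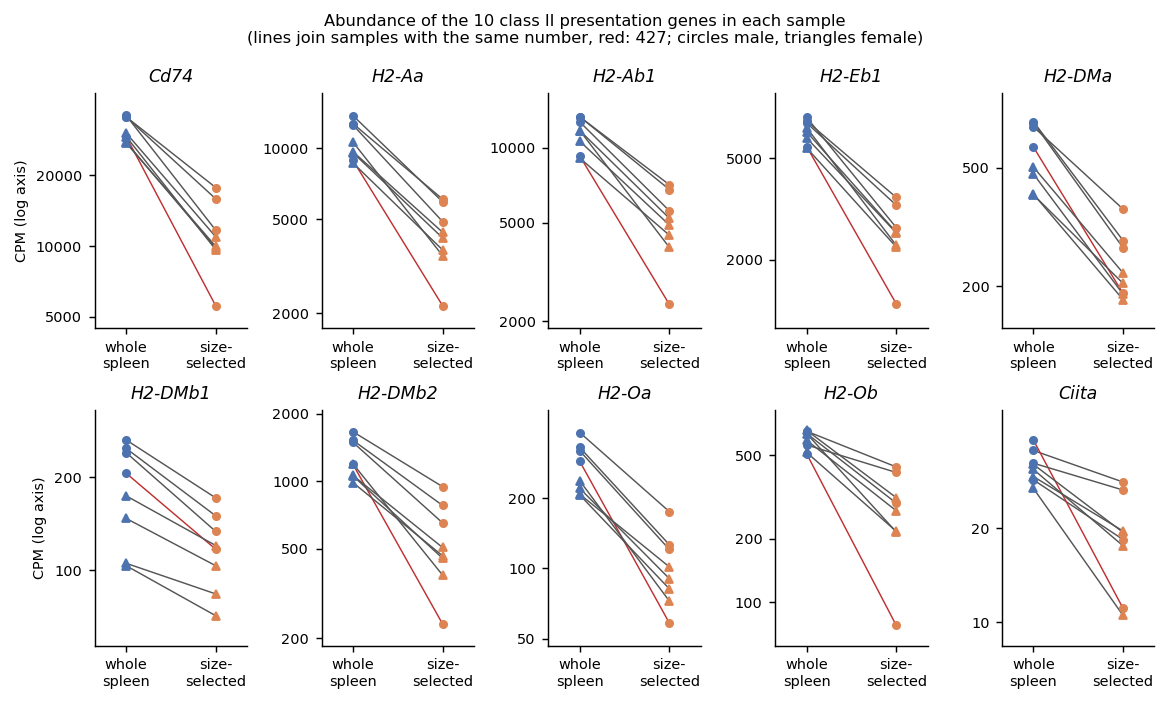
Abundance of each of the 10 genes in CPM on a log axis, in whole spleen (blue) and size-selected samples (orange), with lines joining samples of the same number. All lines run downward, and the line of number 427 (red) is the steepest for 9 genes, H2-DMb1 being the exception.

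*Cd74*, the invariant chain, was the most abundant of the group. In whole spleen it had from 27519.7 to 36040.5 CPM with a median of 29827, and in size-selected samples from 5567 to 17766 with a median of 10463. The ranges did not overlap, and size-selected samples kept between 19.0% and 50% of the level of the whole spleen sample with the same number. It fell by 1.46 on the log2 scale (SE 0.18; adjusted p = 9.11e-07, edgeR), and by 1.39 on restored counts.

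The classical chains followed the same pattern. *H2-Aa*, the alpha chain of I-A, had from 8672 to 13764 CPM in whole spleen (median 10156) and from 2156 to 6095 in size-selected samples (median 4294). *H2-Ab1*, the I-A beta chain, had from 9087 to 13343 CPM (median 11737) and from 2337 to 7099 (median 5041). *H2-Eb1*, the beta chain of I-E, had from 5498 to 7238 CPM (median 6478) and from 1345 to 3517 (median 2559). None of the 3 ranges overlapped between the groups. The log2 fold changes lay close together, at -1.31 (SE 0.18) for *H2-Aa*, -1.19 (SE 0.18) for *H2-Ab1* and -1.32 (SE 0.15) for *H2-Eb1*, with edgeR adjusted p values of 3.16e-06, 9.76e-06 and 3.14e-07. C57BL/6 mice are known to make no I-E alpha chain. The alpha gene's row in the table, *H2-Ea-ps*, had 1 count in 1 size-selected sample and 0 in the other 7, and in whole spleen 1 count in sample 427, 5 in sample 447 and 0 in the other 6. It was too low to be tested. *H2-Eb2*, a further beta chain gene of the region, stood at 47.6 ± 4.65 CPM in whole spleen and 23.0 ± 8.37 in size-selected samples (SD, n = 8), and fell by 1.05 on the log2 scale (SE 0.20, edgeR adjusted p = 0.000163).

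The H2-DM genes encode the peptide exchange factor, with *H2-DMa* giving its alpha chain and *H2-DMb1* and *H2-DMb2* its beta chains. *H2-DMa* had from 405 to 713 CPM in whole spleen (median 543) and from 181 to 363 in size-selected samples (median 213), with no overlap. *H2-DMb2* had from 987 to 1662 CPM (median 1193) and from 232 to 947 (median 487), again with no overlap. *H2-DMb1* had from 103 to 264 CPM (median 189.9) and from 71.2 to 171 (median 118), and its groups overlapped. *H2-DMb1* had the smallest change of the 10, at -0.65 on the log2 scale (SE 0.21; adjusted p = 0.0119, edgeR), against -1.20 (SE 0.22, adjusted p = 9.18e-05) for *H2-DMb2* and -1.24 (SE 0.17, adjusted p = 2.71e-06) for *H2-DMa*. The SD of *H2-DMb1* among whole spleen samples was 34.1% of the mean, where the other 9 members had from 10.1% to 24.0%. Within pairs its fall was even, from 55.6% to 79.6% of the whole spleen level.

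H2-O is made of an alpha chain from *H2-Oa* and a beta chain from *H2-Ob*, and is known chiefly from B cells and thymic epithelium. *H2-Oa* had from 206 to 382 CPM in whole spleen (median 262) and from 58.3 to 175 in size-selected samples (median 95.8). *H2-Ob* had from 507 to 656 CPM (median 611) and from 77.7 to 439.5 (median 284). Neither gene's groups overlapped. *H2-Oa* fell by 1.41 on the log2 scale (SE 0.20, edgeR adjusted p = 4.97e-06) and *H2-Ob* by 1.08 (SE 0.23, adjusted p = 0.000432). *H2-Ob* had the widest range over pairs, from 15.3% of the whole spleen level for number 427 to 74% for number 435.

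*Ciita*, the coactivator of class II genes, was the least abundant of the 10. It had from 26.9 to 38.4 CPM in whole spleen (median 31.5) and from 10.5 to 28.2 in size-selected samples (median 18.9). The groups overlapped at their edges, since sample 408 of the size-selected group lay above the lowest whole spleen sample. *Ciita* fell by 0.75 on the log2 scale (SE 0.18, edgeR adjusted p = 0.00104), and size-selected samples had between 28.9% and 82.0% of their paired whole spleen level.

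Levels were compared between genes per kilobase of the longest principal transcript. In whole spleen the order was *Cd74* (22284 ± 2604 CPM per kilobase), *H2-Aa* (9587 ± 1726), *H2-Ab1* (9473 ± 1392), *H2-Eb1* (3832 ± 393), *H2-DMb2* (893 ± 177), *H2-DMa* (338 ± 78.6), *H2-Oa* (251 ± 60.3), *H2-Ob* (222 ± 22.4), *H2-DMb1* (132 ± 45.2) and *Ciita* (5.29 ± 0.625; SD, n = 8). *H2-Aa* was above *H2-Ab1* in only 5 of 8 samples, and *H2-Oa* above *H2-Ob* in 5 of 8, so these neighbours did not differ beyond their spread. Every other neighbour was in this order in 8 of 8 samples. In the size-selected samples *H2-Ab1* (4155 ± 1265) was above *H2-Aa* (3868 ± 1152) in 8 of 8. *H2-Ob* was above *H2-Oa* in 4 of 8 and *H2-Oa* above *H2-DMb1* in 5 of 8, so these 3 were not separated there.

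Number 427 stood apart among the pairs. Its median log2 difference over the 10 genes was -2.05, from -2.71 for *H2-Ob* to -0.82 for *H2-DMb1*, while the medians of the other 7 numbers ran from -1.56 to -0.95. Lists of B cell and T cell markers both moved with it. The mean log2 CPM of 10 B cell genes changed by -2.44 in number 427 and by -1.32 to -0.62 in the other 7, and that of 7 T cell genes by -2.76 and by -1.84 to -0.75. The part of these markers in the result was not tested. Without number 427 all 10 genes were still called lower, with a median log2 fold change of -1.15.

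**Figure D2:**
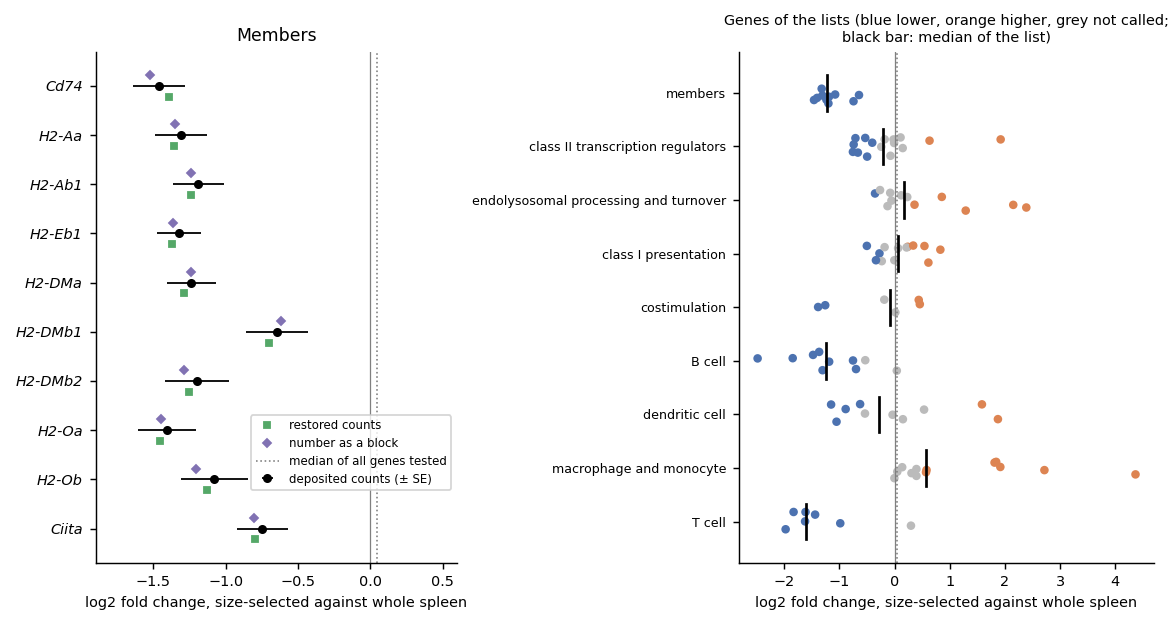
Left, log2 fold change of each of the 10 genes with its SE on deposited counts, beside the values on restored counts and with the number as a block. Right, log2 fold changes of the genes of each list, coloured by call, with the list median as a black bar; the medians are -1.22 for the members, -1.25 for the B cell list (-1.27 and -1.03 on restored counts), -1.62 for the T cell list and 0.57 for the macrophage list.

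Ratios within a sample do not depend on how libraries are scaled, and 4 were tested by exact two-sided permutation over all 12870 splits, adjusted over the 4. These splits ignore the pairing by number, and exact sign flips over the 8 pairs are given in the last section for the ratios called. The ratio of H2-O to H2-DM counts (*H2-Oa* plus *H2-Ob* against *H2-DMa*, *H2-DMb1* and *H2-DMb2*) averaged -1.20 ± 0.222 in whole spleen and -1.29 ± 0.323 in size-selected samples on the log2 scale (SD, n = 8). The ratio differed by -0.09, less than the samples spread (exact permutation p = 0.539), and 6 of 8 pairs were lower in the size-selected sample. Without size-selected sample 427, whose ratio was -1.98, the difference was 0.01.

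*H2-DMb2* gave from 85.3% to 91.0% of the counts of both H2-DMb genes in whole spleen (median 86.3%) and from 66.5% to 86.8% in size-selected samples (median 83.0%). The share was lower in 8 of 8 pairs although the groups overlapped, with an average difference of -6.47 percentage points, larger than the spread of samples gives (means 87.5 ± 2.30% and 81.1 ± 6.63%; SD, n = 8; exact permutation p = 0.00575, adjusted 0.0115). Sample 427 was the lowest, and without it the average difference was -4.39 points (exact permutation, adjusted p = 0.0199). Because of the shared sequence of the 2 genes the share rests on how reads were assigned.

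*Ciita* was higher relative to the chains it activates. Its log2 ratio to the summed counts of *H2-Aa*, *H2-Ab1* and *H2-Eb1* ran from -10.15 to -9.27 in whole spleen (median -9.89) and from -10.17 to -9.04 in size-selected samples (median -9.20). It was higher in 7 of 8 pairs, by 0.50 on average (means -9.81 ± 0.288 and -9.32 ± 0.373; SD, n = 8; exact permutation p = 0.0138, adjusted 0.0184). The exception was number 445, the lowest size-selected sample, and without that sample the difference was 0.62.

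The log2 ratio of *Cd74* to the same chains averaged 0.14 ± 0.109 in whole spleen and -0.08 ± 0.114 in size-selected samples (SD, n = 8). The difference was -0.22, lower in 7 of 8 pairs (exact permutation p = 0.00171, adjusted 0.00684). On restored counts it was -0.09 and no longer passed (exact permutation p = 0.109, adjusted 0.146), since the constant applies to *Cd74* and not to the chains. Relative to the chains, then, *Cd74* was called lower on deposited values only.

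**Figure D3:**
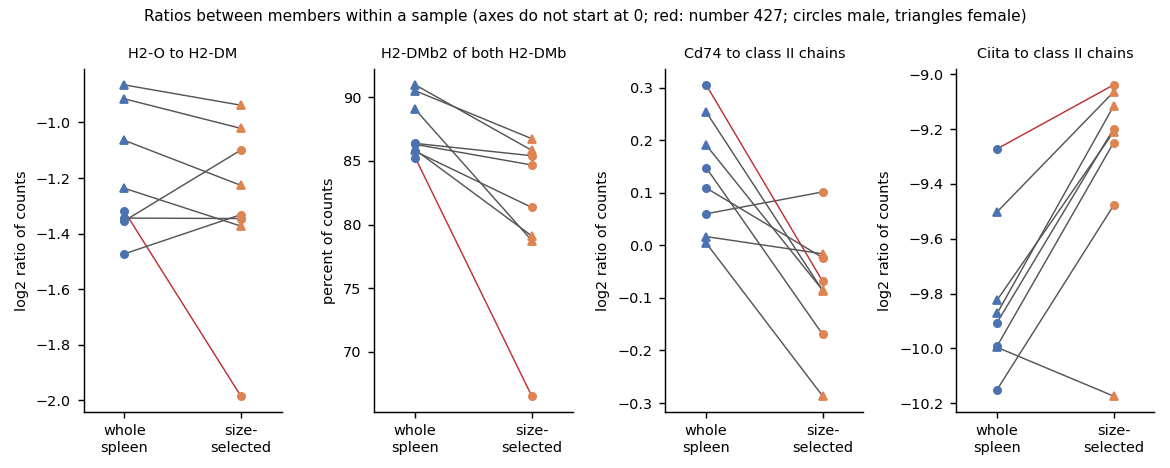
The 4 ratios between members in each sample, as log2 ratios of counts or as the percent of H2-DMb counts from H2-DMb2, with lines joining samples of the same number. The share of H2-DMb2 falls in all 8 pairs, the ratio of Ciita to the chains rises in 7, and the ratio of H2-O to H2-DM has number 427 (red) far below the rest at -1.98.

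Genes that regulate class II transcription changed in both directions. Of 16 genes, 2 were called higher and 7 lower, with a median log2 fold change of -0.21 (-0.09 on restored counts), and all genes tested were called higher in 37.5% of cases and lower in 30.4%. *Irf1*, an interferon response factor, rose by 1.92 (SE 0.13) on the log2 scale. Among those that fell were *Spi1* (PU.1), with a log2 fold change of -0.76 (SE 0.09), *Nfya*, a subunit of NF-Y, with -0.74 (SE 0.18), and *Irf4* with -0.71 (SE 0.21). On restored counts *Spi1* was at -0.51, *Nfya* at -0.79 and *Irf4* at -0.76. *Rfx5*, the DNA-binding subunit of RFX, was at 13.0 ± 3.64 CPM in whole spleen and 11 ± 1.46 in size-selected samples (SD, n = 8; log2 fold change -0.24, edgeR adjusted p = 0.179), and its value on restored counts was 0.00.

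Of 12 genes that process antigen in endosomes and lysosomes, 5 were called higher, 1 lower and 6 neither way, with a median of 0.17 (0.30 with library totals). The share called higher was near the 37.5% of all genes. *March8*, a ubiquitin ligase of membrane proteins, rose by 2.39 (SE 0.29) on the log2 scale, and the cathepsin genes *Ctsl* and *Ctsb* rose by 2.15 (SE 0.15) and 1.29 (SE 0.16). *Cst3*, the cathepsin inhibitor cystatin C, was the gene called lower (-0.36, edgeR adjusted p = 0.0458), and was not called on restored counts (adjusted p = 0.123) or with library totals (adjusted p = 0.151). *Ctss*, the protease that trims the invariant chain in antigen-presenting cells, did not pass the test: it had 942 ± 166 CPM in whole spleen and 905 ± 144 in size-selected samples (SD, n = 8; log2 fold change -0.06, adjusted p = 0.686), and 0.07 with library totals.

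Genes of class I presentation, several of which lie among the class II genes, had a median log2 fold change of 0.06, with 5 of 13 called higher and 3 lower, beside 37.5% and 30.4% of all genes. With library totals 7 were called higher and 1 lower, with a median of 0.19. *Tap2*, a subunit of the peptide transporter, rose by 0.83 (SE 0.10), *Nlrc5*, the class I coactivator related to CIITA, by 0.61 (SE 0.22), and *Erap1*, a peptide-trimming protease, by 0.54 (SE 0.13). *Calr* fell by 0.50 and was not called on restored counts (-0.13, edgeR adjusted p = 0.329). *Psmb8* fell by 0.34 and *H2-K1* by 0.27, and neither was called with library totals (edgeR adjusted p = 0.0853 and 0.066). *B2m*, the light chain of class I, had a log2 fold change of -0.23 (edgeR adjusted p = 0.0788), and without number 427 it was -0.31 and called (edgeR adjusted p = 0.0212). Of 6 costimulation genes 2 were called higher and 2 lower. *Pdcd1lg2* fell by 1.39 (SE 0.21, and 1.14 on restored counts) and *Cd40* by 1.26 (SE 0.17, and 0.56 on restored counts). *Cd80* rose by 0.46, without being called on restored counts (edgeR adjusted p = 0.0722), and *Cd274* by 0.44 (0.69 on restored counts).

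Marker lists of B cells and of macrophages, both known for class II, had medians of opposite sign, and lists of T cells, neutrophils and erythroid cells had medians below that of the members. All genes tested were called lower in 30.4% of cases and higher in 37.5%. Of 10 B cell genes 8 were called lower and 0 higher, with a median of -1.25 (-1.03 on restored counts). *Pax5* fell by 2.48, *Cd79a* by 1.85, *Cd79b* by 1.48 and *Ms4a1* by 0.70 on the log2 scale (SE 0.29, 0.22, 0.24 and 0.18). On restored counts *Pax5* fell by 2.24, *Cd79a* by 1.60, *Cd79b* by 1.53 and *Ms4a1* by 0.75. The summed level of the 10 B cell genes ran from 6532 to 8174 CPM in whole spleen and from 1215 to 4485 in size-selected samples. Of 10 dendritic cell genes 4 were lower and 2 higher, with a median of -0.29 (-0.15 with library totals). *Clec9a* fell the most, at -1.15, and the 2 higher were *Zbtb46* at 1.87 and *Fscn1* at 1.58 (1.99 on restored counts). Of 13 macrophage and monocyte genes 7 were higher (9 with the block) and 0 lower, with a median of 0.57, led by *Siglec1* at 4.37 and *Marco* at 2.72, and their summed level ran from 2506 to 4467 CPM in whole spleen and from 4355 to 10230 in size-selected samples. Of 7 T cell genes 6 were lower (median -1.62), as were 5 of 5 neutrophil genes (median -1.74) and 3 of 5 erythroid genes (median -1.77; 1 of 5 called on restored counts, 5 of 5 with the number as a block). No gene of these 3 lists was called higher in this fit. The T cell list gene *Cd4* had a log2 fold change of 0.30 (edgeR adjusted p = 0.0669), and was called higher with the block (adjusted p = 0.0371) and with library totals (adjusted p = 0.0155). The part of any of these lists in the fall of the class II genes was not tested.

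The genes most like the class II genes across samples were ranked by Pearson's r with the mean log2 CPM of *Cd74*, *H2-Aa*, *H2-Ab1* and *H2-Eb1*, separately in each fraction. These are descriptions over 8 samples that share library depth and cell makeup. Size-selected sample 427 was the lowest of its group for each of these 4 genes (*Cd74* log2 CPM 12.44, others 13.24 to 14.12). Its weight in r was not tested. In the size-selected samples, *Coro1a* (r = 0.997), *Gga2* (0.996), *Cd69* (0.994), *Limd2* (0.993) and *Cxxc5* (0.992) came first of 10090 genes. In whole spleen they were *Prorsd1* (0.982), *Gm37401* (0.957), *Timm17b* (0.954), *Mpc1* (0.948) and *Hist2h2aa1* (0.947) of 8832 genes, none of them among the first 5 of the other fraction. The remaining 6 members followed the mean of the 4 to unequal degrees. *H2-Ob* (0.984) and *H2-DMb2* (0.972) were closest to it in the size-selected samples and *H2-DMb1* (0.318) the farthest. In whole spleen *H2-DMb2* was at 0.853 and *H2-Ob* at 0.601, *H2-DMb1* was at 0.550, and *Ciita*, at -0.08, did not follow the mean.

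Some of the 10 genes had lower values in females than in males in whole spleen, short of the threshold of the test. Every male number is below every female number, so sex cannot be told apart from anything that follows the order of the numbers. *H2-Oa* had from 287 to 382 CPM in 4 males and from 206 to 237 in 4 females, *H2-DMa* from 585 to 713 and from 405 to 501, and *H2-DMb1* from 206 to 264 and from 103 to 174. In each of these 3 genes every female lay below every male, which held for 4.35% of the 13383 genes tested. The log2 fold changes of females against males were -0.60 (SE 0.11) for *H2-Oa*, -0.59 (SE 0.11) for *H2-DMa* and -0.86 (SE 0.16) for *H2-DMb1*, with edgeR adjusted p values of 0.0537, 0.0564 and 0.0559. *H2-DMb2* was at -0.45 (SE 0.12, edgeR adjusted p = 0.123), with overlap between the sexes. By this test 0 of the 10 genes were called lower, as were 0.0971% of all genes. At an unadjusted p under 0.05, which 2149 of the 13383 genes reached, *Cd74* and *H2-Aa* joined these 4. DESeq2 called the same 4 genes lower in females (adjusted p from 0.000137 to 0.0149), where it called 2.09% of all genes lower. limma-voom called 1 of them, *H2-DMb1* (adjusted p = 0.0497), and 0.105% of all genes lower.

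The mean log2 CPM of the 10 B cell marker genes was also apart between the sexes in whole spleen, from 8.32 to 8.46 in females and from 8.65 to 8.69 in males, while their summed level overlapped (6532 to 7314 CPM in females, 6973 to 8174 in males). The smallest edgeR adjusted p among these genes was 0.0749. Of the 10 B cell genes 3 had every female below every male, as 3 of the 10 members did, and the median log2 fold change of females against males was -0.32, beside -0.28 for the members and -0.01 for all genes. The dendritic cell list had a median of -0.45, with 2 of 10 genes apart in this way, and the macrophage and monocyte list -0.26, with 1 of 13. The fibroblast (-1.29, 4 genes tested), erythroid (-0.86) and endothelial (-0.84, 4 genes tested) medians were lower still. The neutrophil list had -0.41 and the T cell list -0.21. In each of these further lists 0 genes were apart in this way. The 6 immediate early and stress genes summed to between 275 and 384 CPM in females and between 394 and 569 in males (median log2 fold change -0.55). The part of these lists in the sex values of the members was not tested.

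The sex values of the class II genes depend on which samples are in the fit. Without number 427, edgeR called 5 of the 10 class II genes lower in females (*H2-Oa*, *H2-DMa*, *H2-DMb1*, *H2-DMb2* and *H2-Aa*; adjusted p from 0.0154 to 0.0441), with 1.11% of all genes called lower. Without number 436 it called 2, *H2-DMa* and *H2-DMb1* (edgeR adjusted p = 0.0448 and 0.024), with 0.38% of all genes called lower. In the size-selected samples 0 of the 10 were called (edgeR adjusted p = 0.999 for all 10; at an unadjusted p under 0.05 *H2-DMa* and *H2-DMb1*, among 632 of 15127 genes), as were 0.0264% of all genes. The values there pointed the same way, at -0.52 for *H2-Oa*, -0.52 for *H2-DMa*, -0.58 for *H2-DMb2* and -0.63 for *H2-DMb1*. The sexes overlapped in all 4. For *H2-Oa* and *H2-DMb2* the lowest size-selected sample was a male, number 427. The fall between fractions did not differ detectably between the sexes: the interaction called 0 of 15760 genes (744 at an unadjusted p under 0.05; 3 with DESeq2), and the smallest unadjusted p of a member was 0.353, for *H2-DMb1* (edgeR).

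**Figure D4:**
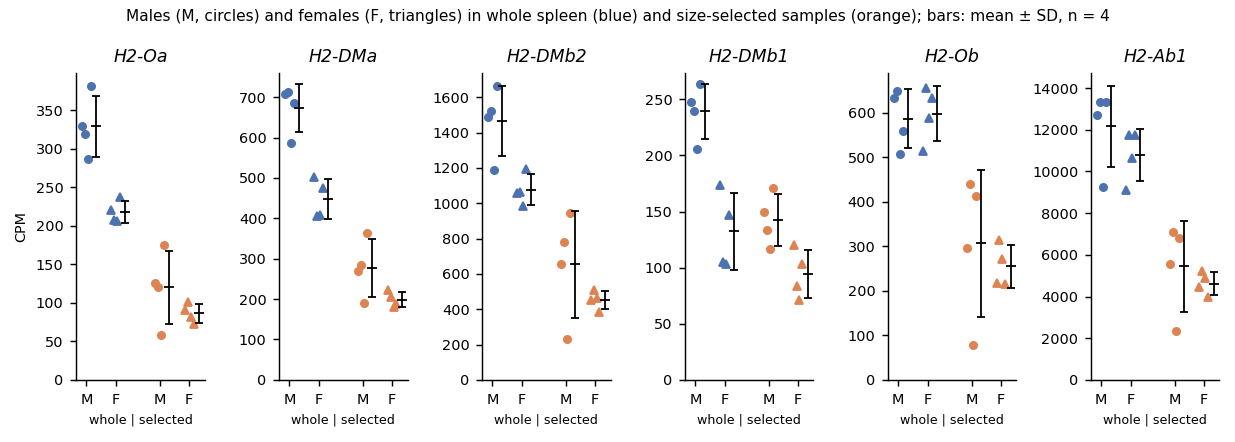
CPM of 6 members in males (circles) and females (triangles), in whole spleen (blue) and size-selected samples (orange), with the mean ± SD of 4 samples beside each group. In whole spleen all females lie below all males for H2-Oa, H2-DMa and H2-DMb1, while the sexes overlap for H2-DMb2, H2-Ob and H2-Ab1.

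The sex values were also read in gene order along chromosome 17, as a description with no test of position. From *H2-Oa* to *H2-DMb1* (34153072 to 34160230, + strand) the 4 members at that end of the region had the 4 lowest values of females against males in whole spleen among the genes plotted for this region, while *Brd2*, which lies between *H2-Oa* and *H2-DMa* and is not a presentation gene, was at 0.03 (edgeR adjusted p = 0.916). The members at the other end had 0.02 for *H2-Ob* (34238903 to 34254414, + strand), -0.18 for *H2-Ab1*, -0.32 for *H2-Aa* and -0.13 for *H2-Eb1*. Between the 2 ends lie the class I genes *Psmb9* (-0.41), *Tap1* (0.15), *Psmb8* (-0.30) and *Tap2* (0.09), and none of these passed the test. *Psmb9*, *Psmb8* and *H2-Aa* thus lay close to *H2-DMb2* (-0.45). Between fractions all members of both ends fell. Of the 4 class I genes between them *Tap2* rose, *Tap1* rose (0.24, edgeR adjusted p = 0.0306; not called on restored counts, adjusted p = 0.0863) and *Psmb8* fell, while *Brd2* (0.15, edgeR adjusted p = 0.185) and *Psmb9* (-0.18, adjusted p = 0.251) were not called.

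**Figure D5:**
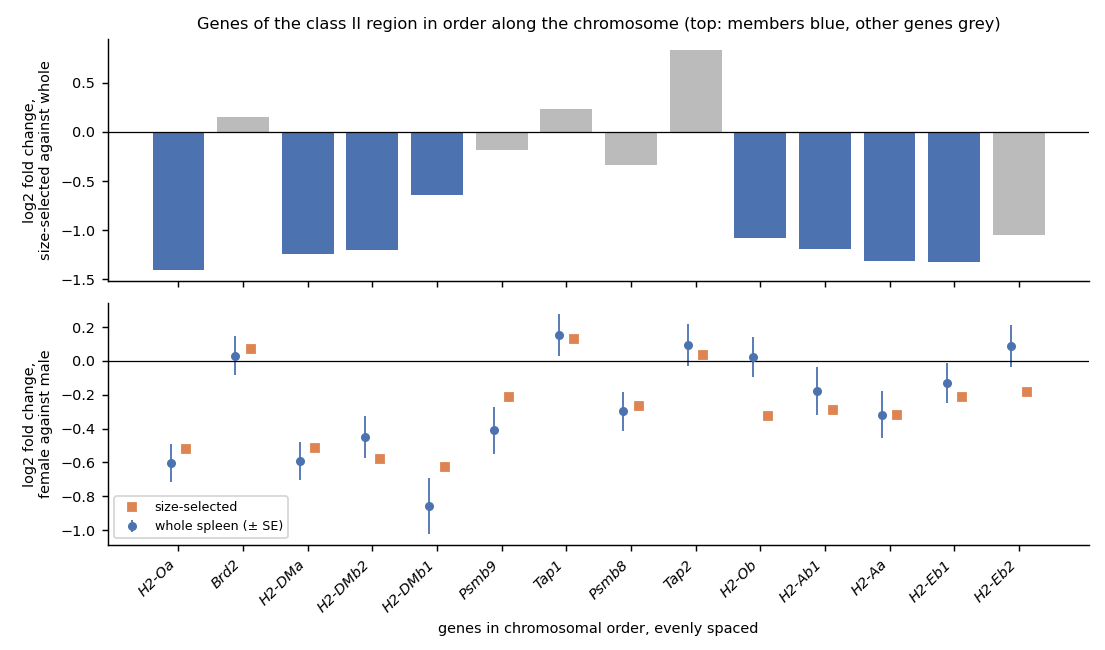
Genes of the class II region in their order along the chromosome, evenly spaced. Top, log2 fold change between the fractions, with members in blue; bottom, log2 fold change of females against males in whole spleen (with SE) and in size-selected samples. The members fall between fractions at both ends of the region, and the lowest sex values, from -0.86 to -0.45 in whole spleen, lie at the end from H2-Oa to H2-DMb1, where Brd2 is at 0.03.

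The ratio of H2-O to H2-DM in whole spleen was apart between the sexes as well. It ran from -1.24 to -0.86 in females and from -1.47 to -1.32 in males, with no overlap. It was not tested, because it was looked at after the values of its genes were known.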

How the data were processed

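The authors deposited estimated counts per gene for 16 mouse spleen samples. Per the submitters' processing notes, Trim Galore, STAR, RSEM, DESeq and mm10 were used; their order, versions and the annotation are not given in the sources used here. The authors' own comparison table was not used here. Gene coordinates are 1-based GENCODE M21 on GRCm38.

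For edgeR 4.0.16 (R 4.3.3) the counts were rounded to whole numbers. Genes that passed filterByExpr at a minimum count of 10 were scaled by TMM, and the quasi-likelihood F test was applied. A gene is called where its Benjamini-Hochberg adjusted p over all genes tested is under 0.05. The fractions were compared over 16 samples with no covariate, the sexes within the 8 samples of each fraction. SE is log2 fold change divided by the root of F, and log2 CPM has a prior count of 2. Alternatives were DESeq2 1.42.0, limma-voom (limma 3.58.1), other scalings and filters, sex as a covariate, the number as a block, restored counts, and leaving out each number or size-selected sample 427 or 445. Nothing says that samples of a group come from separate mice; if they do not, p-values measure only the spread between these samples.

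The number pairs the samples: after subtracting group means, samples sharing a number correlated at 0.120 to 0.376 (mean 0.208, against -0.0287 between other numbers; across 14510 genes, which are not independent replicates), and each correlated best with its own number. In simulated data 200 genes differed by 2 (log2), with no pairing by number. The fraction fit recovered 95.9% of 197 changed genes among 14374 tested (10 of 199 calls false). The sex fit in whole spleen recovered 89.7% among 13137 (5 of 180 calls false), and DESeq2 92.3% (35 of 215 false). The interaction fit recovered 70.5% among 15443 (9 of 150 calls false). In the main fits the members' log2 changes were smaller in size, at most 1.46 between fractions, 0.86 between sexes in whole spleen and 0.30 in the interaction. These rates therefore do not tell how often changes of the members' size are found.

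The members and lists were chosen with earlier results of these data known. All members were named, and of each pathway list up to 3 called genes per direction with the largest changes, plus H2-Eb2, H2-Ea-ps, Ctss, Rfx5, B2m, Cd79a and Ms4a1, and the 5 genes most like the 4 main members in each fraction. *Brd2*, *Psmb9* and *Tap1* were named for their position. Some genes that this rule names are not reported here.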

Additional observations from a re-analysis of the deposited data

Results flagged for a closer look

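Of 61 groups of 8 values screened, 8 had a lowest sample whose gap to the next, as a share of the whole range, was past Dixon's critical value; chance gives about 1 in 20 such groups, and the groups share samples. Size-selected sample 427 was the lowest in 5 of them: *H2-Eb1* (log2 CPM 10.39, others 11.13 to 11.78), *H2-Ob* (6.28, others 7.76 to 8.78), *H2-Eb2* (2.95, others 4.16 to 5.14), the log2 ratio of H2-O to H2-DM (-1.98, others -1.37 to -0.94) and the share of *H2-DMb2* (66.51%, others 78.75% to 86.75%). The differences between the fractions of number 427 were the lowest for *Cd74* (-2.40, others -1.62 to -1.0) and *H2-Eb2* (-2.45, others -1.30 to -0.47). Size-selected sample 445 had the lowest ratio of *Ciita* to the class II chains (-10.17, others -9.48 to -9.04).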

How the results depend on the processing

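Each of the 10 genes kept its direction and its call between fractions under all 20 alternatives (200 of 200 values), with adjusted p up to 0.0419, for *H2-DMb1* with library totals in edgeR. With the number as a replicate block the median of the 10 was -1.26, 10076 genes were called, and the ratio of *Cd74* to the chains (-0.22), that of *Ciita* (0.50) and the share of *H2-DMb2* (-6.47 points) kept their calls (exact sign flips, adjusted p = 0.0312 each); the block changed no other call of a member, and the interaction called 3 genes, none a member. On restored counts the ratio of *Cd74* to the chains fell to -0.0882 and was no longer called, because only *Cd74* carries a constant, and *Rfx5* was at 0.0048 (0.0365 with the block). With library totals *Ctss* was at 0.0707. Without size-selected sample 427 the ratio of H2-O to H2-DM turned to 0.00567, and without sample 445 it was -0.144. DESeq2 called 489 genes between the sexes in whole spleen, 4 of them members, where edgeR called 26 and 0. limma-voom called 1 member. DESeq2 called 22 between the sexes in size-selected samples (edgeR 6) and 3 in the interaction (edgeR 0). Leaving out each number gave 7 to 261 genes between the sexes in whole spleen, 0 to 5 members called, and 0 to 1 genes in the interaction. The cause of these changes was not tested. *H2-Ea-ps*, with at most 5 counts in a sample, was too low to be tested.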
